A study of Mus musculus with 2 samples.

Results

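The genes described here are 10 genes of the endothelial cell surface and its junctions: Cldn5, Esam, Cd34, Lyve1, Plvap, Ptprb, Mmrn2, Thsd1, Myct1 and Cdh5. They are the members of a named list, matched by exact gene symbol in the array's annotation, and make up 10 of the 13697 genes with a probe of a single symbol. The list was drawn up with the difference between these arrays in view, so the differences below describe the members and support nothing about them. The arrays measured embryoid bodies, the aggregates in which mouse embryonic stem (ES) cells differentiate, in 2 groups that both received 2 µM retinoic acid and were analysed at day 4. The Elongin A-/- group was grown from Elongin A-/- ES cells and the Elongin A+/+ group from Elongin A+/+ ES cells, in a medium with serum and N2 supplement. The sources used here do not say how the Elongin A alleles were made or whether each genotype is a single ES cell clone. Each group has 1 array of 32440 probes, so no difference has a replicate check, none was tested, and the effects of genotype, ES cell line, culture and hybridisation cannot be told apart.

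Endothelial cells line blood and lymphatic vessels. They hold together through tight junctions, built of claudins and immunoglobulin-type adhesion molecules, and through adherens junctions, built on the cadherin encoded by Cdh5. Their surface also carries sialomucins, scavenger and hyaluronan receptors, diaphragm proteins of fenestrae and caveolae, and phosphatases that restrain receptor signalling, and VEGF acting on the receptor encoded by Kdr starts the lineage from mesoderm.

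Values are probe intensities in arbitrary units after quantile normalisation of both arrays to a shared distribution. The floor is the median of all probes, 1.03, and a gene is called measured when 1 array or both gave a value above it, as for 9568 genes. Lower values were raised to the floor before subtraction, so a gene under it on 1 array has only a bound, written "at least". Differences are on the log2 scale, Elongin A-/- minus Elongin A+/+. The targeted gene, Eloa, had 3.58 on the Elongin A-/- array and 3.88 on the Elongin A+/+ array, a log2 difference of -0.12 that was 0.05 with the values as deposited. The sources used here do not place its probe relative to the altered part of the gene, so it checks nothing about the labels. The probe disagreement is the spread of the differences of probes that share a gene. Its SD was 0.43 (log2) over 224 genes with several probes above the floor on both arrays. It holds no variation between cultures, cell lines or hybridisations, so it is not an error of the difference between the groups. It serves below only as a yardstick for changes of setting. Every member has 1 probe, so none has this check of its own.

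Of the 10 members, 9 were measured, and all 9 were at least 2-fold higher on the Elongin A-/- array. Over all measured genes, 6.77% were at least 2-fold higher. Because the list was chosen on this contrast, nothing is read from that gap. The 9 differences ranged from 1.83 to 5.27 with a median of 2.44, beside a median of -0.02 over all measured genes. Cldn5 and Mmrn2 were above the floor on both arrays. Esam, Cd34, Lyve1, Plvap, Ptprb, Thsd1 and Myct1 were above it on the Elongin A-/- array and below it on the Elongin A+/+ array, and Cdh5 was below it on both. The members that passed did so mainly through the array on which they are high, so this count is not a count over the whole list. RNA came from whole embryoid bodies, in which fewer cells of a type and less RNA per cell cannot be told apart.

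**Figure D1:**
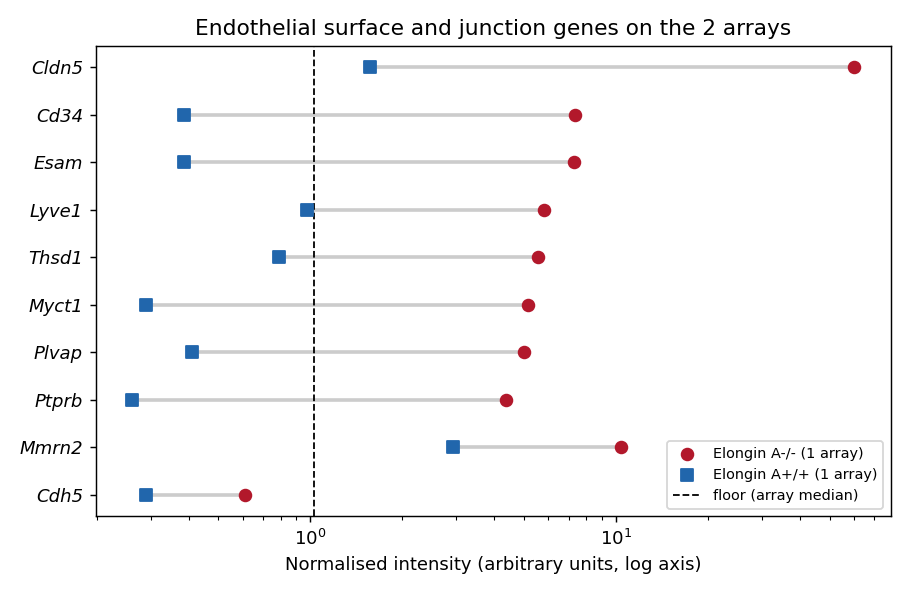
Normalised intensity (log axis, arbitrary units) of each gene on the Elongin A-/- array (red circles) and the Elongin A+/+ array (blue squares), 1 array each, with the floor of 1.03 as a dashed line. Levels are to be compared along a row, not between rows. Cldn5 and Mmrn2 lie right of the floor on both arrays, 7 genes cross it, and both values of Cdh5 lie left of it.

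Among the tight junction genes, Cldn5, which encodes the claudin that seals endothelial tight junctions, had the widest difference of the set. Its intensity was 60.2 on the Elongin A-/- array and 1.56 on the Elongin A+/+ array (62.1 for Elongin A-/- and 1.5 for Elongin A+/+ as deposited), which is 38.5-fold higher. The lower value lies close to the floor, so the fold is approximate. Cldn5 ranked at position 3 of the 9568 measured genes by signed difference. Esam, an immunoglobulin-type adhesion molecule found at endothelial tight junctions and on platelets, had 7.29 on the Elongin A-/- array and 0.386 on the Elongin A+/+ array. That is at least 7.10-fold higher, at position 41.

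Cdh5 encodes VE-cadherin, the adherens junction cadherin of endothelium, and was the member that could not be called. It had 0.613 on the Elongin A-/- array and 0.289 on the Elongin A+/+ array, both under the floor. Without a floor these values would differ by 1.08 on the log2 scale, in the same direction as the other members, but levels under the floor have no order here. Whether its probe detects the transcript well was not tested.

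Among the surface receptors and mucins, Cd34, a sialomucin of endothelium and blood progenitors, had 7.31 on the Elongin A-/- array and 0.386 on the Elongin A+/+ array, at least 7.12-fold higher. Lyve1, the hyaluronan receptor known from lymphatic endothelium and some macrophages, had 5.83 on the Elongin A-/- array against 0.977 on the Elongin A+/+ array, at least 5.68-fold higher. Its Elongin A+/+ value lies just under the floor, so the bound is close to the ratio of the values. Ptprb encodes VE-PTP, a receptor tyrosine phosphatase that acts on the angiopoietin receptor TIE2 and on VE-cadherin. It had 4.35 on the Elongin A-/- array and 0.260 on the Elongin A+/+ array, at least 4.24-fold higher.

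Plvap encodes the protein of the diaphragms that span fenestrae and caveolae. Its intensity was 4.98 on the Elongin A-/- array and 0.411 on the Elongin A+/+ array, at least 4.86-fold higher. Thsd1, a membrane protein with a thrombospondin type 1 domain, had 5.56 on the Elongin A-/- array and 0.788 on the Elongin A+/+ array, at least 5.41-fold higher. Myct1 encodes a small membrane protein of endothelial and blood progenitor cells, and had 5.14 on the Elongin A-/- array and 0.289 on the Elongin A+/+ array, at least 5.01-fold higher. Mmrn2, multimerin 2, is secreted into the matrix of endothelium. It had 10.4 on the Elongin A-/- array and 2.93 on the Elongin A+/+ array, 3.55-fold higher, the smallest difference of the measured members and the only one besides Cldn5 that is not a bound.

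The 7 genes with bounds had intensities from 4.35 to 7.31 on the Elongin A-/- array and from 0.260 to 0.977 on the Elongin A+/+ array. Within that range on the Elongin A-/- array lay 977 genes of the array, and 31 of them (3.17%), these 7 included by choice of the list, were below the floor on the Elongin A+/+ array. The reverse, genes in this range on the Elongin A+/+ array and below the floor on the Elongin A-/- array, held for 26 of 1006 genes (2.58%). By signed difference the 9 measured members held positions 3 to 145 of 9568. For the 7 bounds the position rests on the Elongin A-/- level alone.

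**Figure D2:**
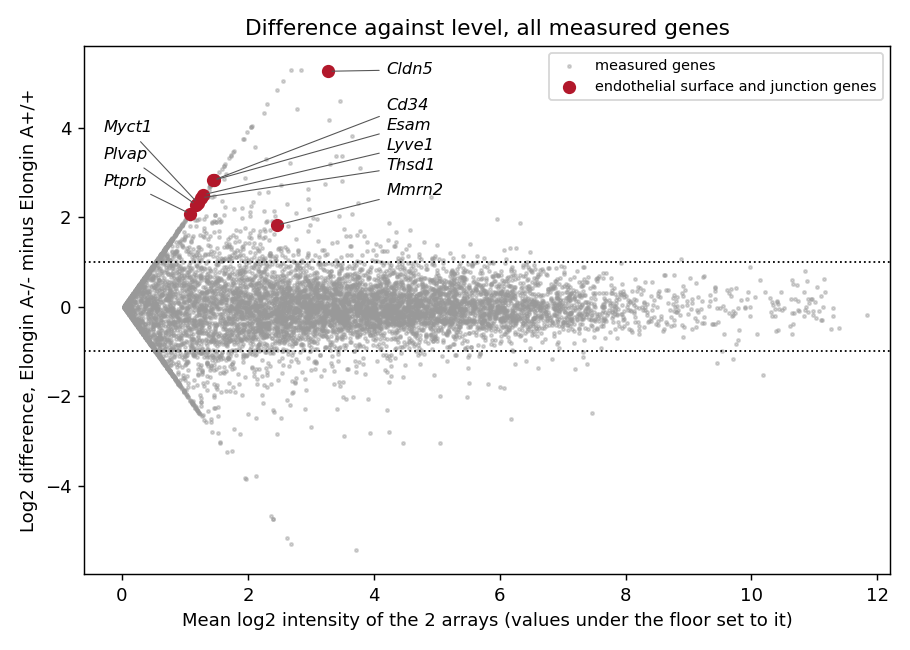
Log2 difference (Elongin A-/- minus Elongin A+/+) against mean log2 intensity for 9568 measured genes (grey) and the 9 measured members (red), values under the floor set to it, with dotted lines at 2-fold. The slanted edges are genes at the floor on 1 array, where 7 members lie, while Cldn5 (5.27) and Mmrn2 (1.83) lie off the edge.

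The members lie on 7 chromosomes, with 3 on chromosome 8 (Plvap, Thsd1 and Cdh5), 2 on chromosome 10 (Ptprb and Myct1) and the others on chromosomes 1, 7, 9, 14 and 16. Chromosome 8 was shifted on these arrays. Its 522 measured genes had a median difference of 0.43, and 11.9% of them were at least 2-fold higher. Chromosome 11, which holds no member, was alike, with a median of 0.41 over 803 measured genes and 11.8% at least 2-fold higher. The median of chromosome 6, which holds no member either, was -0.26. With each chromosome's median removed, the difference of Plvap was 1.85 and that of Thsd1 2.00, and all 9 measured members stayed at least 2-fold higher. The medians of the other members' chromosomes lay between -0.08 and -0.01.

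Promoter sequences were at hand for Cldn5, Cd34, Thsd1 and Myct1, 4 of the 10 members, and they are shown because these genes differ in the same direction. Each runs from 250 bases before to 50 after a transcription start, from RefSeq on GRCm38.p6, plus strand, and for Thsd1 that start lies inside the annotated span of the gene. Capitals mark AGGAAG and GTAAACA on either strand, a form each of the sites that ETS and forkhead transcription factors bind. Other forms of these sites were not searched for and are not marked.
Cldn5, chr16:18776597-18776896: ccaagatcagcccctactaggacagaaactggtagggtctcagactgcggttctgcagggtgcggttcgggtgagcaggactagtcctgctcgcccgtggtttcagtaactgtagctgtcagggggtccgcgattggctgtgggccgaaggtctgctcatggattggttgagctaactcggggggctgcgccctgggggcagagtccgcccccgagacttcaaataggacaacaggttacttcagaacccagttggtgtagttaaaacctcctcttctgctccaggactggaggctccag
Cd34, chr1:194938571-194938870: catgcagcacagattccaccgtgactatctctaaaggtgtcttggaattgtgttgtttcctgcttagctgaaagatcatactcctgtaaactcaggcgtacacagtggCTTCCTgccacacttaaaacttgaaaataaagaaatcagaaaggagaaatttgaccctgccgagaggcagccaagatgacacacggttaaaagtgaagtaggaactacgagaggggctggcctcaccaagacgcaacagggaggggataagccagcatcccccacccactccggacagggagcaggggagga
Thsd1, chr8:22227053-22227352: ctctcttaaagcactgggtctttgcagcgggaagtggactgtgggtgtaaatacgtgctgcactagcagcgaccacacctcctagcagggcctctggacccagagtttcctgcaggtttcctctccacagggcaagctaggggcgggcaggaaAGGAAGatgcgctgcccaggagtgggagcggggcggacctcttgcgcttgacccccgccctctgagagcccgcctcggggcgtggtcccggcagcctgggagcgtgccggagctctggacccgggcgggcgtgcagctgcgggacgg
Myct1, chr10:5593478-5593777: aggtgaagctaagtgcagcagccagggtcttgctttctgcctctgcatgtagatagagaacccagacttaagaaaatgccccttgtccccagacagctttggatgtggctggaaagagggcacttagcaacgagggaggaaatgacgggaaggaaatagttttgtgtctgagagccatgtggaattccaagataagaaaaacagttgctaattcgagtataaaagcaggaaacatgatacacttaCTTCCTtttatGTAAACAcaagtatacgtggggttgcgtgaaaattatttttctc

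The ETS form AGGAAG was present in 3 of these 4 windows, those of Cd34, Thsd1 and Myct1, and in 35.4% of 32851 RefSeq promoter windows of the same length. The forkhead form GTAAACA was present in the Myct1 window, from position 7 counting the start as 1, close behind its ETS match without overlapping it, and in 3.65% of all windows. Searched the same way, the GATA form AGATAA was found in Myct1 (11.2% of all windows), the SOX form ACAAT in Cd34 (31.0%), and the E-box CANNTG in Cldn5, Thsd1 and Myct1 (72.3%). The Cldn5 window held neither capitalised form. Its GC content was 58.3%, that of Thsd1 66.7%, of Cd34 50% and of Myct1 43.3%, beside a median of 52.7% over all windows. The matches are letters in a window and show no binding.

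Other endothelial genes differed in both directions. Of 42 further surface, junction and secreted genes of endothelium, 32 were on the array, 22 were measured, 6 were at least 2-fold higher and 3 at least 2-fold lower, and their median was 0.56. The shares over all measured genes were 6.77% higher and 5.99% lower by that fold. Ramp2, the partner of the adrenomedullin receptor, had 16.7 on the Elongin A-/- array and 0.319 on the Elongin A+/+ array, at least 16.3-fold higher. The gene of that receptor, Calcrl, named after its value was seen, was below the floor on both arrays. Emcn, an endothelial sialomucin, had 5.83 on the Elongin A-/- array against 0.328 on the Elongin A+/+ array. Pecam1, the adhesion molecule CD31 of endothelium, platelets and leukocytes, had 4.14 on the Elongin A-/- array against 0.667 on the Elongin A+/+ array. Ramp2 and Pecam1 lie on chromosome 11, where the median over 803 measured genes was 0.41. Acvrl1, Stab1 and Ephb4, looked at after their values were seen, were just past 2-fold (1.03, 1.02 and 1.01).

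The lower genes of that list were Cd93, Cav1 and Pdpn. Cd93, a C-type lectin receptor that binds multimerin 2, had 0.604 on the Elongin A-/- array and 2.40 on the Elongin A+/+ array, at least 2.34-fold lower. Cav1, the caveolin of caveolae, had 0.903 on the Elongin A-/- array and 2.22 on the Elongin A+/+ array, at least 2.16-fold lower. Pdpn, a mucin of lymphatic endothelium and several epithelia, was 2.11-fold lower, with 6.12 on the Elongin A-/- array and 12.9 on the Elongin A+/+ array. The list therefore held named endothelial genes on both sides, while 10 of its 32 genes were below the floor on both arrays.

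Among the receptors and ligands of vessel growth, Kdr, Tek and Adm were the ones at least 2-fold apart. Of 15 VEGF, angiopoietin and apelin genes on the array, 10 were measured. Of these, 3 were higher by at least 2-fold and 0 lower, around a median of 0.14. Over all measured genes, 6.77% were higher and 5.99% lower by that fold. Kdr, the VEGF receptor of endothelium, had 54.4 on the Elongin A-/- array and 2.23 on the Elongin A+/+ array, 24.4-fold higher. Tek, the angiopoietin receptor TIE2 on which VE-PTP acts, had 4.84 on the Elongin A-/- array against 0.627 on the Elongin A+/+ array, at least 4.71-fold higher. Adm, adrenomedullin, was 3.96-fold higher, with 7.45 on the Elongin A-/- array and 1.88 on the Elongin A+/+ array. Flt1 had no probe with that symbol alone.

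Among 24 endothelial transcription factors, 21 were measured, 10 were at least 2-fold higher and 1 lower, around a median of 0.90. Over all measured genes, 6.77% were higher and 5.99% lower by that fold. Of the 21, 6 have only a bound. Etv2, the ETS factor that starts the endothelial and blood lineages, had 19.3 on the Elongin A-/- array and 3.09 on the Elongin A+/+ array. Sox7 and Sox18, SOX factors of early endothelium, were 11.9-fold and at least 5.36-fold higher. Tal1, a factor of blood and endothelial progenitors, had 10.9 on the Elongin A-/- array and 0.876 on the Elongin A+/+ array, and its partner Lmo2 was 3.95-fold higher. Prox1, the regulator of lymphatic endothelium, looked at after its value was seen, was lower (1.73 on the Elongin A-/- array and 3.48 on the Elongin A+/+ array), while the lymphatic receptor gene Lyve1 was higher.

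**Figure D3:**
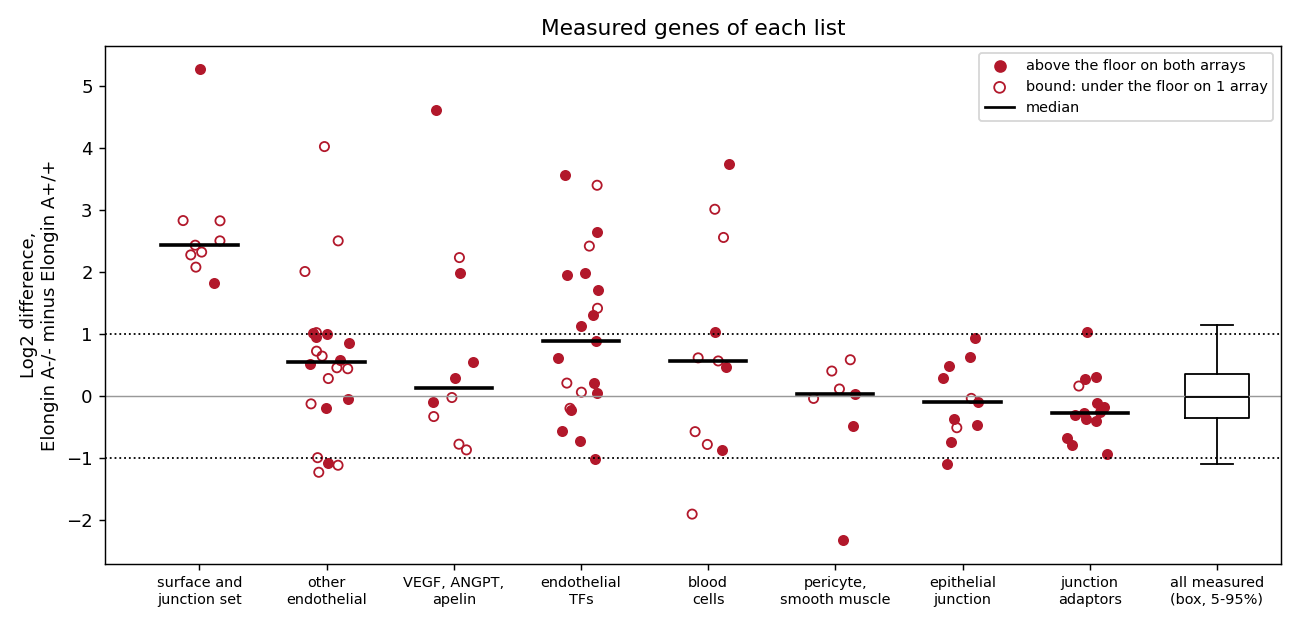
Log2 difference (Elongin A-/- minus Elongin A+/+) of the measured genes of each list, filled circles above the floor on both arrays, open circles bounds, bars the list median, with a box (quartiles, whiskers from 5% to 95%) for all measured genes. The 9 members lie between 1.83 and 5.27, while each other list holds genes on both sides of 0.

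Markers of other cell types that share some of these genes were counted as well. Of 10 endothelial markers, 7 were above the floor on the Elongin A-/- array and 3 on the Elongin A+/+ array, with summed intensities of 152 (Elongin A-/-) and 13.8 (Elongin A+/+), and Cdh5, Tie1 and Robo4 were below it on both. Cldn5, Esam and Cdh5 of these markers are members of the list itself. Of the 7 others, 5 were above the floor on the Elongin A-/- array and 2 on the Elongin A+/+ array, with sums of 84.1 (Elongin A-/-) and 11.6 (Elongin A+/+), of which Kdr gives 54.4 and 2.23. A sum adds probes of different brightness, so it is carried by the brightest. Of 4 red cell markers on the array, 3 were above the floor on the Elongin A-/- array and none on the Elongin A+/+ array (sums of 16.3 for Elongin A-/- and 2.77 for Elongin A+/+). The other, Alas2, was below it on both. Hbb-bh1, an embryonic globin, had 8.30 on the Elongin A-/- array against 0.873 on the Elongin A+/+ array. Of 3 platelet markers, 2 were above the floor on each array (sums of 18 for Elongin A-/- and 8.01 for Elongin A+/+), and Clec1b, a platelet and myeloid lectin receptor, was 13.4-fold higher on the Elongin A-/- array, with an Elongin A+/+ value of 1.04 that lies at the floor. Clec1b alone carries the higher sum, since Gp9, a platelet glycoprotein, had 3.67 on the Elongin A-/- array and 6.66 on the Elongin A+/+ array, and Pf4 was below the floor on both. Gp9 was chosen after its value was seen. Of 3 leukocyte markers on the array, none was above the floor on the Elongin A-/- array and 1, Spi1, on the Elongin A+/+ array, where it had 1.76 (named after its value was seen). Ptprc, the pan-leukocyte phosphatase CD45, and Itgam were below the floor on both. The summed values were 1.14 (Elongin A-/-), made of values under the floor, and 2.54 (Elongin A+/+), and give no order. Over the longer list of these blood cells, 16 genes were on the array and 11 were measured. Of these, 4 were at least 2-fold higher and 1 lower, beside 6.77% and 5.99% over all measured genes. The lower gene, Lyz2, had 0.854 (Elongin A-/-) and 3.83 (Elongin A+/+), at least 3.73-fold lower. Klf1 had 0.923 (Elongin A-/-) and 1.52 (Elongin A+/+), and Gata1 was below the floor on both. Klf1 and Gata1 were named after their values were seen. The part of red cell, platelet and leukocyte precursors in the levels of Cd34, Esam and Myct1 was not tested.

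Of 5 pericyte and smooth muscle markers, 2 were above the floor on the Elongin A-/- array and 1 on the Elongin A+/+ array, with sums of 3.90 (Elongin A-/-) and 3.32 (Elongin A+/+), and Cspg4 and Myh11 were below it on both. Over the longer list of these cells, 7 of 12 genes were measured. None was at least 2-fold higher and 1 was lower, beside 6.77% higher and 5.99% lower over all measured genes. That gene, Tagln, an actin-binding protein of smooth muscle, had 8.30 on the Elongin A-/- array and 41.4 on the Elongin A+/+ array. All 5 epithelial markers were above the floor on both arrays, with sums of 116 (Elongin A-/-) and 133 (Elongin A+/+). Of 4 neural markers, 3 were above the floor on the Elongin A-/- array and 4 on the Elongin A+/+ array, with sums of 222 (Elongin A-/-) and 263 (Elongin A+/+). Tubb3 gives 168 (Elongin A-/-) and 179 (Elongin A+/+) of these sums. The log2 difference was -1.29 for Sox1 (a bound), -0.87 for Sox2, -0.09 for Tubb3 and 0.46 for Pax6. These 4 were named after their values were seen.

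Relatives of the members in their protein families did not all follow them. Of 19 claudin genes on the array, 9 were measured, with a median of -0.09, and Cldn5 was the only one at least 2-fold higher. Over all measured genes, 6.77% were higher and 5.99% lower by that fold. Cldn16, a claudin of kidney tubules, was at least 2.94-fold lower, with 0.466 on the Elongin A-/- array and 3.02 on the Elongin A+/+ array. Of 13 classical cadherins, 6 were measured. Cdh11, a mesenchymal cadherin, was 3.01-fold higher and Cdh15, a muscle cadherin, 2.42-fold lower. Cdh1, the epithelial cadherin, had 23.0 on the Elongin A-/- array and 14.8 on the Elongin A+/+ array, and Cdh2, the neural cadherin, 40.6 on the Elongin A-/- array and 51.0 on the Elongin A+/+ array. Cdh1, Cdh11 and Cdh15 lie on chromosome 8, as Cdh5 does.

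In the immunoglobulin family of Esam, 6 of 7 genes were measured, and Cxadr, the coxsackie and adenovirus receptor, was at least 3.69-fold lower (1.00 on the Elongin A-/- array and 3.79 on the Elongin A+/+ array), opposite to Esam. Of the sialomucin relatives of Cd34, Podxl had 0.972 on the Elongin A-/- array and 0.806 on the Elongin A+/+ array, both under the floor. Podxl2 had 4.31 on the Elongin A-/- array and 7.29 on the Elongin A+/+ array, lower where Cd34 was higher. The phosphatase relatives of Ptprb, which are Ptprh, Ptprj and Ptpro, were below the floor on both arrays. Of the matrix relatives, Emilin2 had 22.6 on the Elongin A-/- array and 17.5 on the Elongin A+/+ array, and Thbs2, a thrombospondin, was 2.05-fold higher. Podxl, Podxl2, Emilin2 and the 3 phosphatase genes were chosen after their values were seen.

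**Figure D4:**
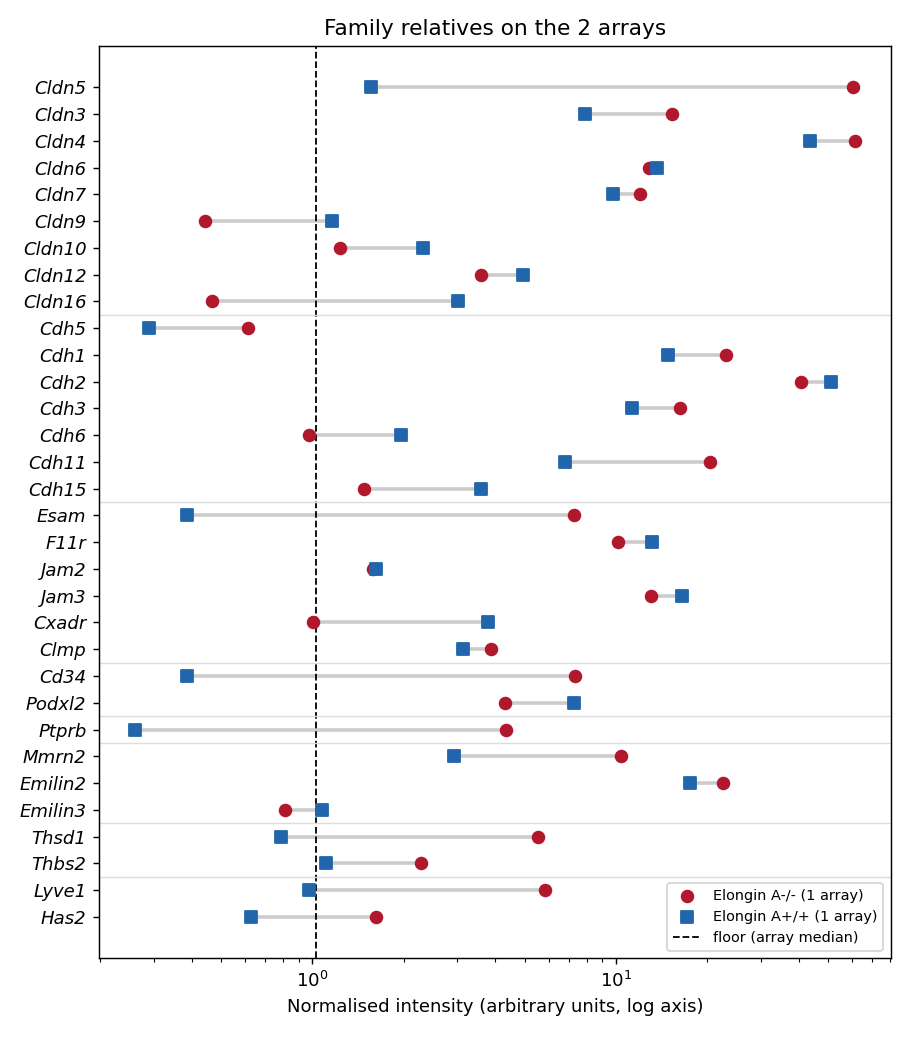
Normalised intensity (log axis, arbitrary units) on the Elongin A-/- array (red circles) and the Elongin A+/+ array (blue squares), 1 array each, for members with a listed family and their measured family relatives, families separated by grey lines, floor dashed. Plvap and Myct1 have no listed family and are not drawn. Levels are to be compared along a row. Cldn5 and Esam lie higher on the Elongin A-/- array, while Cldn16 and Cxadr lie higher on the Elongin A+/+ array.

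The calls of the members depended on the floor more than on the scaling. With the values as deposited, 9 members passed 2-fold, around a median of 2.50, although the share of higher genes among all genes at least 2-fold apart was then 64.0%, beside 53.1% after quantile normalisation. With the floor at the 75th percentile of the arrays, 6 members were measured and 1 of them, Cldn5, was at least 2-fold higher (3.53). Plvap, Ptprb and Myct1 were below that floor on both arrays.

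**Figure D5:**
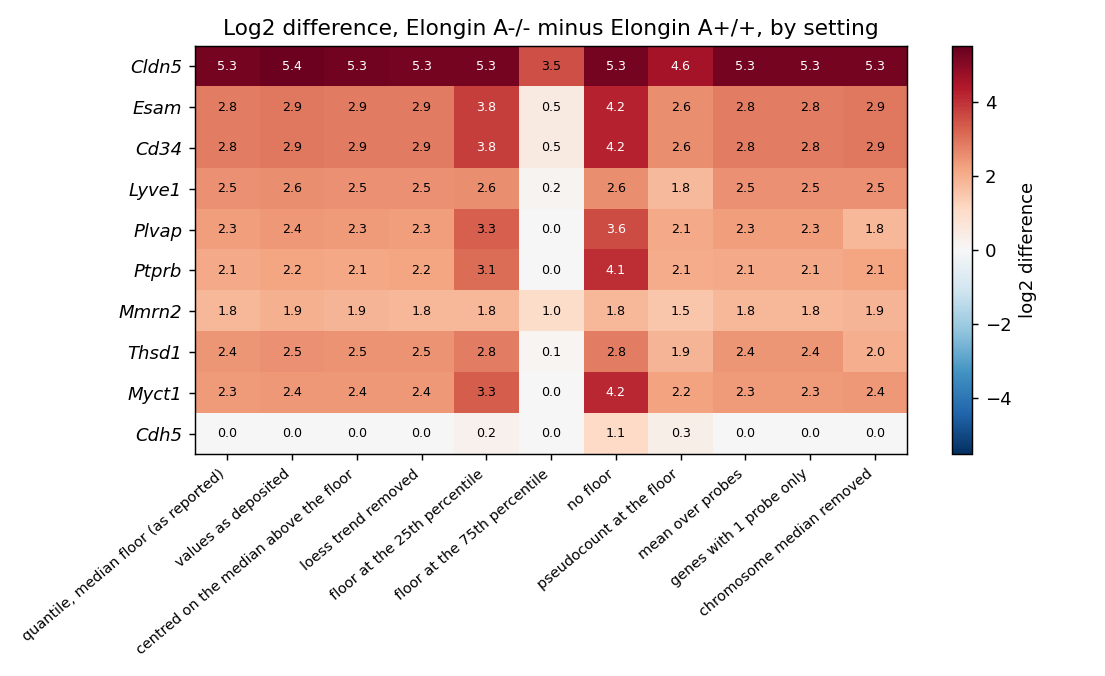
Log2 difference (Elongin A-/- minus Elongin A+/+) of each member under the reported setting (left column) and 10 other settings, coloured from blue (lower) to red (higher). Cldn5 is at least 3.53 in every column, and the column with the floor at the 75th percentile is the one in which the other 8 measured members lie under 2-fold.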

How the data were processed

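RNA from retinoic acid-treated embryoid bodies was labelled with digoxigenin and detected by chemiluminescence on Applied Biosystems mouse arrays, per the labels' protocols. The authors deposited intensities on a linear scale with array medians of 1.03 (Elongin A-/-) and 1.02 (Elongin A+/+). The sources used here do not give their normalisation, background correction or genome build, and the scale is read from the values. Arrays were grouped by title. The number of arrays, 1 per genotype, limits the precision.

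Probes were named from the platform annotation, with 14253 probes of 1 symbol, 243 of several and 17944 unnamed. Percentiles of the arrays differed by up to 0.16 (log2), so both were quantile normalised. A gene was its probe with the highest mean log2 intensity. Genes were called at 2-fold, with no test. Named genes were all members, up to 6 genes per list at least 2-fold apart, and family relatives at least 2-fold apart. A few markers whatever their value, and cell type markers under the floor, are named too. Genes named beyond this rule, apart from Eloa, are marked as chosen, named or looked at after their values were seen. The members and lists were chosen with earlier results of these data known. The processing was tested on simulated data. Changes were placed only in genes well above the floor there, so the handling of bounds was not tested. Other scalings, floors, probe rules, thresholds and removal of chromosome medians were tried, with Python 3.11.15, numpy 2.4.6, pandas 2.3.3 and statsmodels 0.14.6.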

Additional observations from a re-analysis of the deposited data

How the results depend on the processing

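No paired analysis was possible because each genotype has 1 array. The count of members at least 2-fold higher, or past the threshold used, was 9 in 11 of 12 alternatives. It was 1 if the floor was the 75th percentile. Every member has 1 probe, so the probe rules could not change the count. A lower floor, no floor or a 1.5-fold threshold could not lower it. Those alternatives are therefore no check on it. The median of the members was 0.49 with that floor, 3.17 with a 25th-percentile floor, and 4.06 without a floor, because the bounds move with the floor. The number of measured genes also changes with the floor. Of the further endothelial surface genes, 6 of 22 measured were at least 2-fold higher as reported. It was 10 of 30 with a 25th-percentile floor, 1 of 6 with a 75th-percentile floor, and 10 of 22 without a floor. At thresholds of 1.5-fold and 3-fold the higher ones numbered 11 and 3 of 22. Of all measured genes, 648 (6.77%) were at least 2-fold higher. The number was 1074 (8.65%) with a 25th-percentile floor, 141 (2.61%) with a 75th-percentile floor, and 1080 (11.3%) without a floor. It was 1511 (15.8%) at 1.5-fold and 213 (2.23%) at 3-fold. A count of higher genes has no direction that could reverse. No member's difference fell below 0 in any alternative, but a change of floor alone cannot turn a sign. The sign of Eloa turned as given above. Over the 10 members and 10 alternatives, 75 single values moved by no more than the probe disagreement of 0.43 and 25 by more. The 75 include values that could not move, those under the probe rules. They also include differences of 0 for Cdh5 where it lay under the floor on both arrays. Intensities under the floor carry no order here, and detection calls were not used here.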

Other observations

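Genes of the adaptors that tie junction molecules to the cytoskeleton or signal beside them were listed as well. Of 14 on the array, all were measured, 1 was at least 2-fold higher and none lower, beside 6.77% higher and 5.99% lower over all measured genes, and their median was -0.26. The differences ranged from -0.93 for Heg1, a receptor that binds Krit1, to 1.05 for Ccm2. Ctnnb1, the beta-catenin that binds classical cadherins, had 29.4 on the Elongin A-/- array and 24.2 on the Elongin A+/+ array, and Tjp1, the tight junction scaffold ZO-1, had 25.6 on the Elongin A-/- array and 33.2 on the Elongin A+/+ array. Ccm2, a scaffold of the cerebral cavernous malformation complex, was 2.06-fold higher, with 22.5 on the Elongin A-/- array and 10.9 on the Elongin A+/+ array, and the 803 measured genes of its chromosome, 11, had a median difference of 0.41. Its partner Krit1 had 10.3 on the Elongin A-/- array and 11.1 on the Elongin A+/+ array. Heg1, Ctnnb1, Tjp1 and Krit1 were chosen after their values were seen.

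Of 11 epithelial junction genes on the array, all were measured, with a median of -0.09. None was at least 2-fold higher and 1 was lower, beside 6.77% higher and 5.99% lower over all measured genes. That gene was Tjp3, the scaffold ZO-3, which had 2.72 on the Elongin A-/- array and 5.78 on the Elongin A+/+ array.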
